A study of Homo sapiens with 39 samples.

Results

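The members are 10 genes read out by the actin cytoskeleton through SRF and YAP were followed in HepaRG cells, a human hepatoma line that differentiates into hepatocyte-like and biliary-like cells. They were CTGF, CYR61, ANKRD1, AMOTL2, ACTA2, TAGLN, MYL9, TPM1, VCL and SRF, taken by gene symbol from the deposited table, 10 of 20793 gene targets. Expression was measured by AmpliSeq, in which 1 short amplicon per gene is amplified and sequenced, and values are RPM, read counts scaled to the total of a library.

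The 39 libraries held 30 treated conditions and 9 vehicle controls. Cells were treated daily for 3 days and harvested after 55 h of exposure, and the RNA of 3 cultures was pooled into 1 library per condition, so no condition has a replicate. DDI (DNA damage-inducing) chemicals were aflatoxin B1 (AFB1; 0.25, 1 and 2.5 µM), 2-nitrofluorene (2NF; 10, 50 and 250 µM), etoposide (ETP; 0.5, 2.5 and 10 µM), cisplatin (CISP; 2, 5 and 10 µM) and methyl methanesulfonate (MMS; 50, 100 and 200 µM). Non-DDI chemicals were the tubulin poison colchicine (COL; 0.05, 0.1 and 0.3 µM), ampicillin (AMP; 1, 3 and 10 mM), 2-deoxy-D-glucose (2DG; 1.25, 5 and 10 mM), sodium ascorbate (ASC; 1, 2 and 10 mM) and sodium chloride (NaCl; 1, 2.5 and 10 mM). Controls received DMSO (4 libraries, for CISP, 2NF, ETP and a shared control of AFB1 and COL), medium (4 libraries, for AMP, 2DG, ASC and NaCl) or water (1 library, for MMS). The vehicle therefore nearly coincides with the class, and the effects of both cannot be told apart in comparisons of level between classes. All comparisons were made against the matched control.

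SRF is a transcription factor that binds the CArG box, and its co-activators of the MRTF family are held in the cytoplasm by monomeric actin and released when actin polymerizes. YAP and its paralog TAZ are co-activators that bind DNA through TEAD factors and enter the nucleus when cells spread, come under tension or lose Hippo kinase signaling. Microtubules sequester the guanine nucleotide exchange factor ARHGEF2 (GEF-H1), and microtubule loss is known to release it and to raise actin contractility. The question was whether microtubule loss by COL, or DNA damage, moved genes downstream of these routes.

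Library totals lay between 8503015 and 16422513 counts on gene targets, with a median of 11199618. All 10 hepatocyte markers had at least 10 counts in every library. So did 4 of 7 cholangiocyte and 6 of 10 fibroblast or stellate markers, so this shows detection and not identity. Of the members, 7 had at least 10 counts in every library. TAGLN (median 6 counts, from 0 to 48) and VCL (median 16 counts, from 6 to 63) were near the detection limit, and MYL9 was at 0 in 34 libraries and never above 2 counts. Levels were not compared between genes, because amplicons differ in efficiency.

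RefSeq promoter sequences (GRCh38.p14, the 250 bases before a gene's start, 5′ to 3′ on the gene's strand) were at hand for 7 members. Those of 2 YAP-linked genes, of SRF itself and of TPM1, the well-expressed member that moved most in COL, are shown to place the motifs beside the values. Capitals mark the TEAD motif GGAATG (or CATTCC on the other strand) in CTGF and ANKRD1, and the CArG box in SRF. The CArG box was searched only as an exact match to CCWWWWWWGG, with W for A or T.
CTGF, chr6:131951373-131951622, minus strand: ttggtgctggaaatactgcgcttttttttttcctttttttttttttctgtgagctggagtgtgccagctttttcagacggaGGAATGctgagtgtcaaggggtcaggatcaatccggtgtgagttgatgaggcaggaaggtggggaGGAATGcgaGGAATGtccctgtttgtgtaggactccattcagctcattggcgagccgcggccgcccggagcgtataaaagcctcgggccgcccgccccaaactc
ANKRD1, chr10:90921088-90921337, minus strand: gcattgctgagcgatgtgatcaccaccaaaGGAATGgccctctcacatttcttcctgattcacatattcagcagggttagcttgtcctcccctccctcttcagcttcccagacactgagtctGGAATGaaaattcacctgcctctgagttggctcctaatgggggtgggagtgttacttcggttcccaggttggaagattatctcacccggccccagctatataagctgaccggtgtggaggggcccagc
SRF, chr6:43171019-43171268, plus strand: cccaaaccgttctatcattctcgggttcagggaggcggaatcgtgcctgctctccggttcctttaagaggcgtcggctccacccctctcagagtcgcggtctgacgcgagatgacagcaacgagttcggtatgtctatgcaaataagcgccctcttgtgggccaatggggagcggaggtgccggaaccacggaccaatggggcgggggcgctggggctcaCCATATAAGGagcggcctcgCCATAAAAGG
TPM1, chr15:63048239-63048488, plus strand: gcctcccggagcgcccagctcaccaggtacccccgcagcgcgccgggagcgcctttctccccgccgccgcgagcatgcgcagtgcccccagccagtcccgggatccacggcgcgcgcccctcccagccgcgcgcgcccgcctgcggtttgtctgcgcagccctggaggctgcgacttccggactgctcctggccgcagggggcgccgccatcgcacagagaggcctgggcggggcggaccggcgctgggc

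CTGF held the TEAD motif at 3 places, which began 169, 104 and 95 bases before the start. ANKRD1 held it at 2 places, 220 and 128 bases before the start. The SRF promoter held 2 CArG boxes, beginning 30 and 10 bases before the start. TPM1 held neither set of letters in this window. The 7 members had 10 promoters in the table, of which 5 held the TEAD motif, against 11.9% of all 35116 promoters of the same length. They belonged to CTGF, ANKRD1, ACTA2, VCL and AMOTL2. The exact CArG box was held by 1 promoter, against 1.16%, and boxes with a mismatched letter were not counted. The motifs did not overlap each other, and a match is a description of letters, not of binding.

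Each COL result rests on 3 libraries and a control shared with AFB1. In COL, the fitted trend rose for the actin-binding members TPM1, VCL and TAGLN, with VCL and TAGLN at low counts. ACTA2, SRF and the YAP-linked CTGF, CYR61, ANKRD1 and AMOTL2 did not pass the test. A difference between these groups of members was not tested. Changes are fitted slopes over concentration steps, given as the log2 change from control to the high concentration with its standard error (SE). They come from 1 edgeR quasi-likelihood fit of all 39 libraries with Benjamini-Hochberg adjustment over 13803 genes. The SE was derived from the test, as the size of the change divided by the square root of the F statistic. Among the 9 members tested, 3 rose and 0 fell, against 5.12% of all genes tested higher and 7.21% lower. Members and the lists below were chosen with earlier results of these data known, so their shares beside all genes are descriptions only. When libraries were scaled by their totals alone, the share of higher genes among all COL calls moved from 41.5% to 51.5%. The median fitted change of the 9 members was 0.43, beside 0.00 over all genes tested.

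TPM1 (target AMPL311689) encodes a tropomyosin, which lies along actin filaments. Its level was 278.9 RPM in the matched control, 276.9 at 0.05 µM, 342.3 at 0.1 µM and 564.4 at 0.3 µM of COL. The 4 DMSO controls ranged from 249.2 to 307.4 RPM, so the mid and high concentrations lay above all of them and the low one within. The fitted change was 0.89 (SE 0.21), with an adjusted p of 0.00544. No other treated or control library reached the TPM1 level of COL at 0.3 µM.

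VCL (target AMPL25437307) encodes vinculin, which links focal adhesions to actin. It rose from 1.07 RPM in the matched control (15 counts) to 2.11, 2.78 and 4.56 RPM (24, 28 and 42 counts) with COL. The DMSO controls ranged from 1.07 to 2.30 RPM, and the matched control was the lowest of them. The fitted change was 2.27 (SE 0.54; adjusted p 0.00511), and with the vehicle in place of the matched control as block it was 1.33 (adjusted p 0.0204).

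TAGLN (target AMPL10759047), the actin-bundling transgelin, had 1 count in the matched control and 12, 7 and 18 counts in the 3 COL libraries. These correspond to 0.072, 1.06, 0.695 and 1.95 RPM, and all 3 COL libraries lay above the DMSO controls, which had at most 5 counts. By counts alone, the ratio of the 0.3 µM library to the control was 27.3, with an exact 95% counting interval from 4.3 to 1136. The fitted change, which depends on the prior count for so few reads, was 3.04 (SE 0.97; adjusted p 0.0386). TAGLN reached 4.22 RPM in MMS at 100 µM, above its level in any COL library. RefSeq places PCSK7 over TAGLN and AP3M1 over VCL, and the strand of the reads is not given in the sources used here.

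The calls of these 3 members needed the highest concentration. Without the 0.3 µM library the fitted change of TPM1 shrank to 0.37 (adjusted p 0.784). Those of VCL (2.60, adjusted p 0.164) and TAGLN (3.44, adjusted p 0.472) kept their size and no longer passed. With 1 equal term for the 3 concentrations none of the 3 passed. Without the shared control TAGLN was no longer called (adjusted p 0.346), whereas TPM1 (0.0181) and VCL (0.0347) were.

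**Figure D1:**
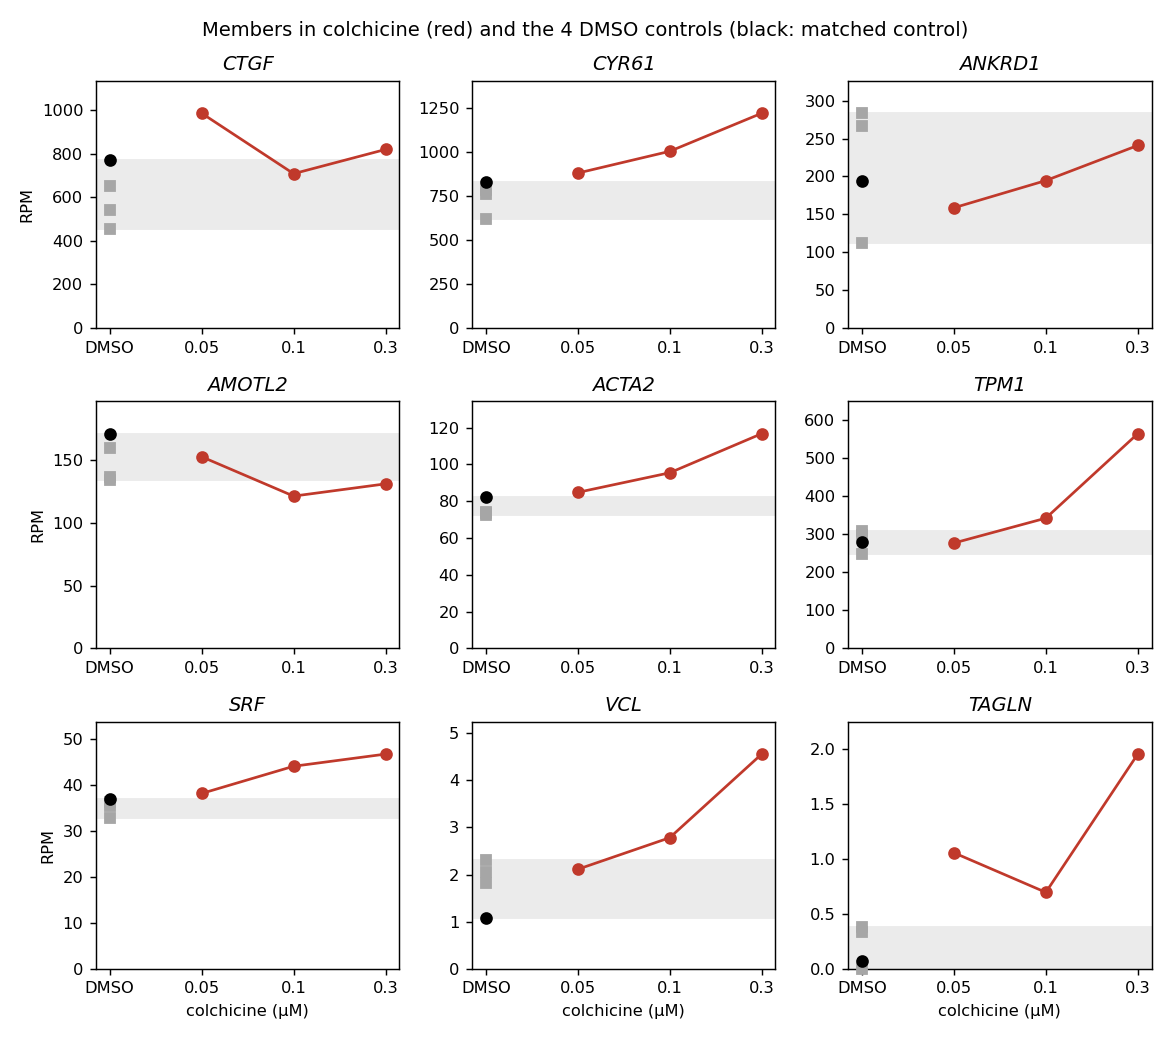
Level of 9 members in RPM (y axis, from 0) in the 4 DMSO controls (black circle, matched control; grey squares, the others; shading, their range) and at 3 COL concentrations (red, 1 library each). TPM1, VCL and TAGLN at 0.3 µM lie above the control range, whereas ANKRD1 stays within it.

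The secreted matricellular proteins CTGF and CYR61, the usual reporters of YAP activity, did not pass in COL, and a difference between them was not tested. CTGF (target AMPL11335505) was at 772.6 RPM in the matched control and at 985.8, 708.2 and 819.6 RPM with COL. That control was the highest of the 4 DMSO controls (from 455.2 RPM), and the COL values fell on both sides of it. The fitted change was -0.11 (SE 0.24; adjusted p 0.862).

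CYR61 (target AMPL11238754) was at 831.1 RPM in the matched control and at 881.1, 1005 and 1222 RPM with COL. All 3 COL values lay above the 4 DMSO controls (619.2 to 831.1 RPM), yet the fitted change of 0.47 (SE 0.28) had an adjusted p of 0.329. With the vehicle as block it passed narrowly (0.61, adjusted p 0.0482).

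ANKRD1 (target AMPL25160169), a nuclear and sarcomeric ankyrin-repeat protein, was at 194.3 RPM in the matched control and at 158.6, 194.5 and 240.9 RPM with COL. Its DMSO controls alone ranged from 111.6 to 283.4 RPM, wider than the COL series, and the fitted change was 0.29 (SE 0.65; adjusted p 0.867). AMOTL2 (target AMPL31029590), an angiomotin that binds YAP at junctions, was at 171 RPM in the matched control and at 152.6, 121.2 and 131 RPM with COL. It was the 1 member with at least 10 counts in every library that lay below all DMSO controls at 0.3 µM, and its fitted change was -0.43 (SE 0.17; adjusted p 0.117).

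ACTA2 (target AMPL10957017), smooth muscle actin, was at 82.1 RPM in the matched control and at 84.8, 95.4 and 116.7 RPM with COL. Each COL library lay above all 4 DMSO controls (72.7 to 82.1 RPM), and the fitted change was 0.43 (SE 0.18; adjusted p 0.126). ACTA2 passed when libraries were scaled by their totals alone (0.51, adjusted p 0.0428) and with the vehicle as block (0.53, adjusted p 0.00659). SRF (target AMPL8261193), the factor itself, was at 36.9 RPM in the matched control and at 38.1, 44.0 and 46.6 RPM with COL. The DMSO controls of SRF ranged from 32.7 to 36.9 RPM, and its fitted change was 0.31 (SE 0.20; adjusted p 0.386).

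At 0.3 µM COL, 5 of the 7 members with at least 10 counts in every library lay above all 4 DMSO controls and 1 lay below. Of all targets at that depth, 34.8% lay above and 25.8% below. MYL9, the regulatory light chain of myosin, was at 0 in the low and high COL libraries, which with a limit of 3 counts allows no statement on its direction.

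Several other cytoskeletal SRF targets rose in COL, and none fell with the matched control as block. Of 20 listed genes 16 were tested, of which 9 rose and 0 fell in COL, against 5.12% of all genes tested higher and 7.21% lower. This list, too, was chosen with earlier results of these data known. The median fitted change of the 16 was 0.76, beside 0.00 over all genes tested. FLNA, which cross-links actin filaments, rose from 132.4 RPM in the matched control to 185.5, 262.8 and 545.3 RPM (fitted change 1.99, SE 0.24, adjusted p 2.28e-06). TPM4, another tropomyosin, rose from 217.1 to 346.8, 505.8 and 773.8 RPM (1.73, SE 0.28, adjusted p 0.000112).

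MYH9, the heavy chain of non-muscle myosin, rose from 1360 to 1808, 2562 and 3339 RPM in the COL series (fitted change 1.21, SE 0.23, adjusted p 0.000687). ZYX, the focal adhesion protein zyxin, rose from 336.4 to 476, 516.4 and 750.2 RPM (0.99, SE 0.22, adjusted p 0.0023). CNN1, calponin, rose from a low 0.501 RPM to 2.11, 2.19 and 9.54 RPM (4.06, SE 0.61, adjusted p 4.95e-05). The others of the list that rose were ACTN1, ACTB, CALD1 and FHL2, with fitted changes from 0.64 to 1.12. Genes that did not pass included TLN1 (0.29) and DSTN (-0.34). Without the 0.3 µM library 2 genes of this list passed, FLNA (adjusted p 0.0289) and TPM4 (0.0412), without the shared control 5 did, and with 1 equal term none did. With the vehicle as block 11 rose and 1 fell.

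Other YAP and TEAD targets moved both ways in COL. Of 19 genes tested, 5 rose and 2 fell, against 5.12% of all genes tested higher and 7.21% lower. The number that fell was near that background. TGFB2, a ligand of the TGF-beta family, rose at each concentration, from 50.4 RPM to 99.6, 176.7 and 259.1 RPM (fitted change 2.34, SE 0.25, adjusted p 5.86e-07). It passed in each of the 11 other settings, also without the 0.3 µM library (adjusted p 0.000569) and with 1 equal term (0.0435). NT5E, the ectonucleotidase CD73, rose from 9.81 to 12.2, 17.2 and 27.4 RPM (1.35, SE 0.23, adjusted p 0.000214).

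IGFBP3, which binds insulin-like growth factors, fell from 78.4 RPM in the matched control to 78.3, 45.9 and 32.2 RPM with COL (fitted change -1.31, SE 0.32, adjusted p 0.00551). RBMS3, an RNA-binding protein, fell from 41.4 to 29.3, 24.7 and 22.8 RPM (-1.005, SE 0.26, adjusted p 0.00837). FJX1 (1.34), AXL (0.94) and AMOTL1 (1.17) rose. Without the 0.3 µM library 1 gene of this list passed, without the shared control 3 did, and with 1 equal term 1 did.

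The regulators themselves moved little. YAP1 was at 230.3 RPM in the matched control and at 202.9, 240.5 and 231 RPM with COL (fitted change 0.04, adjusted p 0.951). WWTR1, which encodes TAZ, had a fitted change of 0.15 (adjusted p 0.766), and the MRTF gene MKL1 of 0.75 (SE 0.40, adjusted p 0.269). Of 13 Hippo pathway genes tested, 1 rose in COL, near the 5.12% of all genes tested. It was TEAD2 (1.16, SE 0.34, adjusted p 0.0216), whose call was lost without the 0.3 µM library (0.235) and without the shared control (0.146). ARHGEF2, the exchange factor held on microtubules, rose and was at 7.66 RPM in the matched control and at 12.3, 10.9 and 19 RPM with COL (1.11, SE 0.27, adjusted p 0.00655). Its call was lost without the shared control (adjusted p 0.0856) and without the 0.3 µM library (0.507). None of 5 SRF targets of the ternary complex type, a growth factor-driven class that includes EGR1 and FOS, passed in COL.

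Other genes moved with the COL series and bear on its reading. Over all genes tested, 5.12% rose and 7.21% fell in COL. Tubulin transcripts, as a check of the treatment, summed to between 1723 and 2079 RPM in the 3 COL libraries, below the 2170 to 2536 RPM of the DMSO controls. Of 7 tubulin genes tested 1 rose and 0 fell, and TUBB was at 788.7 RPM in the matched control and at 681.8, 621 and 765.5 RPM (fitted change -0.27, adjusted p 0.698). Of 10 hepatocyte markers 7 fell, with a summed level from 21188 to 39416 RPM in COL against 35878 to 50314 RPM in the DMSO controls. All 3 tested genes of 7 smooth muscle markers rose, CNN1 among them, with a summed level from 24.5 to 48.2 RPM against 10.6 to 13.1 RPM. Of these 7 markers, 1 (SMTN) had at least 10 counts in every library, and 5 had a median below 10 counts. CNN1 is also in the SRF list above, and DES is also in the fibroblast and stellate list, so these lists are not independent. LMOD1 of the smooth muscle list was at 0 in the matched control and all COL libraries. Fibroblast and stellate markers summed to between 257 and 269 RPM in COL and 164 and 240 RPM in the DMSO controls, with 2 of 8 tested genes higher and COL1A2 at 0 in the matched control and all COL libraries. Of the tested cholangiocyte and endothelial markers, 1 of 4 and 1 of 2 fell. In bulk RNA, fewer cells of a type and less RNA per cell cannot be told apart, and the part of these shifts in the results was not tested.

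**Figure D2:**
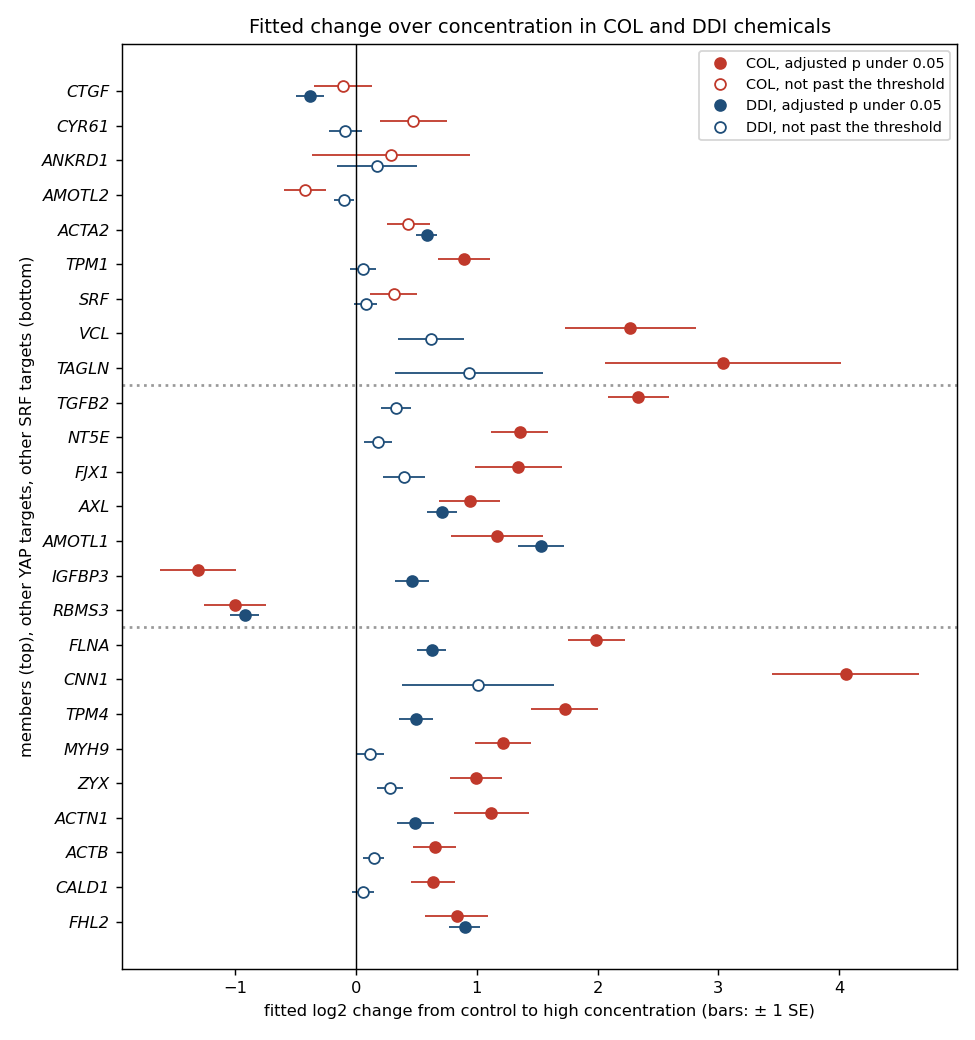
Fitted log2 change from control to the high concentration (x axis; bars, ± 1 SE) of the 9 tested members, of the other YAP targets and of the other SRF targets that passed in COL (y axis), for COL (red) and the mean of the 5 DDI chemicals (blue), filled where the adjusted p was under 0.05. The SRF targets in the lower block have COL changes from 0.64 to 4.06. Genes below the members were drawn because they passed in COL, so their distance from 0 in COL follows from that choice. Listed genes that did not pass in COL are not drawn.

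Over the mean trend of the 5 DDI chemicals ACTA2 rose and CTGF fell. This was 1 of 9 in each direction, near the background of 8.05% of all genes tested higher and 11.0% lower. The median fitted change of the 9 members was 0.08, beside 0.00 over all genes tested. When libraries were scaled by their totals alone, the share of higher genes among all calls moved from 42.3% to 55.0%, and ACTA2 and CTGF kept their direction and their calls. The spread in this test lies within chemicals, so it concerns these 5 chemicals.

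ACTA2 rose with AFB1 from 82.1 RPM to 96.5, 115.5 and 145.3 RPM, and with 2NF from 73.7 to 88.5, 151.6 and 156.6 RPM. With ETP it went from 74.3 to 78.2, 88.4 and 116.4 RPM, and with MMS from 118.8 to 112.6, 139.6 and 153.5 RPM. With CISP it was at 98.1, 73.4 and 84.8 RPM against 72.7 RPM, highest at the low concentration. ACTA2 was above its matched control in 14 of 15 DDI conditions. In the 12 conditions of AMP, 2DG, ASC and NaCl it lay between 92.7 and 122.5 RPM, 7 above and 5 below their controls.

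The fitted ACTA2 change over the 5 DDI chemicals was 0.58 (SE 0.09), with an adjusted p of 1.31e-05. It exceeded that of the 4 non-DDI chemicals without COL by 0.57 (SE 0.13; adjusted p 0.00568). In that comparison ACTA2 and CTGF passed, 2 of 9 members, against 8.11% of all genes. Scaling by library totals moved the share of higher genes among all calls of that comparison from 39.8% to 57.3%, with both members still called in the same direction. Leaving out any 1 DDI chemical kept the ACTA2 trend past the threshold (adjusted p at most 0.00153), while 1 equal term per chemical gave 0.0562.

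By single chemical, ACTA2 passed in 2NF (fitted change 1.16, SE 0.20, adjusted p 0.000311) and in AFB1 (0.78, SE 0.18, adjusted p 0.00684). In ETP it had a fitted change of 0.64 (SE 0.19) with an adjusted p of 0.371, and in MMS 0.30 and in CISP 0.03 did not pass. At the high concentration, every DDI ratio of ACTA2 lay above every one of the 4 non-DDI ratios. It was the 1 of 7 members with at least 10 counts in every library to do so, as 4.22% of targets at that depth did. TAGLN, at low counts, did so narrowly as well (lowest DDI ratio -0.026, highest non-DDI ratio -0.038). When chemicals were taken as replicates at that concentration, 0 of 9 members passed and 0.0863% of 13907 genes did, 12 genes with edgeR, 1891 at an unadjusted p under 0.05 and 273 with DESeq2. ACTA2 then had a difference of 0.54 (SE 0.17; adjusted p 0.195).

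FAS, a death receptor gene and p53 target, overlaps ACTA2 on the opposite strand in RefSeq, and without the strand of the reads the signal of the pair cannot be assigned with certainty. FAS rose over the DDI chemicals (fitted change 0.89, adjusted p 1.79e-07), and in COL its change was 0.48 (adjusted p 0.122). Across the 30 treated libraries the log2 ratios of ACTA2 and FAS to control had a Pearson r of 0.73 and a Spearman coefficient of 0.75. This is a description over points that share controls, chemicals and library depth. The 2 genes did not keep 1 ratio. In CISP at 5 µM the log2 ratio was 0.01 for ACTA2 and 0.61 for FAS, and in 2NF at 50 µM it was 1.03 for ACTA2 and 0.69 for FAS. The part of the overlap in the ACTA2 values was not tested.

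**Figure D3:**
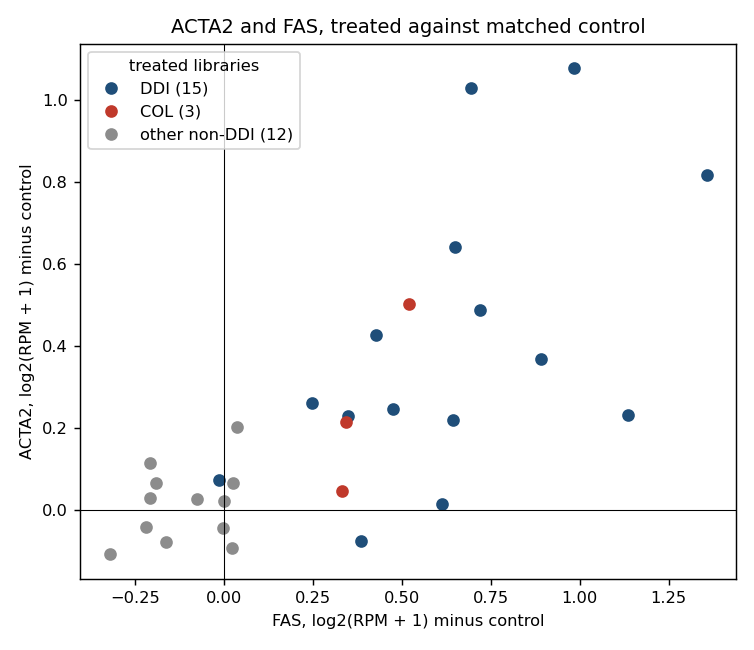
Log2(RPM + 1) of a treated library minus its matched control for FAS (x axis) and ACTA2 (y axis), 1 point per treated library, coloured by class. The 15 DDI points reach 1.36 for FAS and 1.08 for ACTA2, and the 12 other non-DDI points stay at or below 0.20 for ACTA2.

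CTGF was below its control in 11 of 15 DDI conditions and above it in 8 of 12 conditions of the 4 non-DDI chemicals. With AFB1 it went from 772.6 RPM to 670.7, 649 and 547.6 RPM, and with 2NF from 455.2 to 421, 444.3 and 249.8 RPM, its lowest level in the series. With MMS it was at 432.3, 462.4 and 458.4 RPM against 729.9 RPM, lower at each concentration. ETP went the other way, with 915.5, 713.3 and 850.6 RPM against 652.4 RPM. CISP gave 448.3, 447.5 and 560.3 RPM against 540.2 RPM, on both sides of its control.

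The fitted CTGF change over the 5 DDI chemicals was -0.38 (SE 0.11; adjusted p 0.0168), and it lay below that of the 4 non-DDI chemicals by 0.67 on the log2 scale (-0.67, SE 0.17; adjusted p 0.0138). The call over the 5 chemicals was lost without AFB1 (-0.31, adjusted p 0.147), without MMS (-0.30, 0.118), without 2NF (-0.29, 0.102) and with the vehicle as block (adjusted p 0.0586). The difference to the non-DDI chemicals was lost without AFB1 (adjusted p 0.0776), with the vehicle as block (0.0987) and with 1 equal term (0.297). Part of that difference lay in the non-DDI arm, where NaCl took CTGF from 336.8 RPM, the lowest of the 4 media controls, to 454.7, 526.5 and 630 RPM. AMP took it from 591.1 to 741.2, 798.6 and 906.3 RPM. Neither passed by itself, with adjusted p of 0.465 for NaCl and 0.983 for AMP.

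By single chemical CTGF passed in MMS (-0.72, SE 0.25, adjusted p 0.0488) and not in 2NF (-0.79, SE 0.27, adjusted p 0.0756) or AFB1 (-0.67, SE 0.24, adjusted p 0.119). The MMS call of CTGF was marginal, and was lost with library totals (adjusted p 0.106), without a filter on low counts (0.0519), with the vehicle as block (0.199) and with 1 equal term (0.101). AMOTL2 passed in 2NF, where it went from 133.7 RPM to 117.7, 116.7 and 80.3 RPM (-0.72, SE 0.20, adjusted p 0.0177). In all, 4 of 81 combinations of a tested member and a chemical other than COL passed. The members called were 2 of 9 in 2NF, against 8.74% of all genes, 1 of 9 in AFB1, against 5.56%, and 1 of 9 in MMS, against 15.5%. No member passed in ETP (0.0797% of all genes), ASC (0.058%), NaCl (0.0435%), CISP (0.0%), AMP (0.0%) or 2DG (0.0%), where few or no genes of any kind passed. With edgeR 0 genes passed in CISP, AMP and 2DG, with 918, 417 and 212 at an unadjusted p under 0.05, and DESeq2 called 13, 2 and 0.

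**Figure D4:**
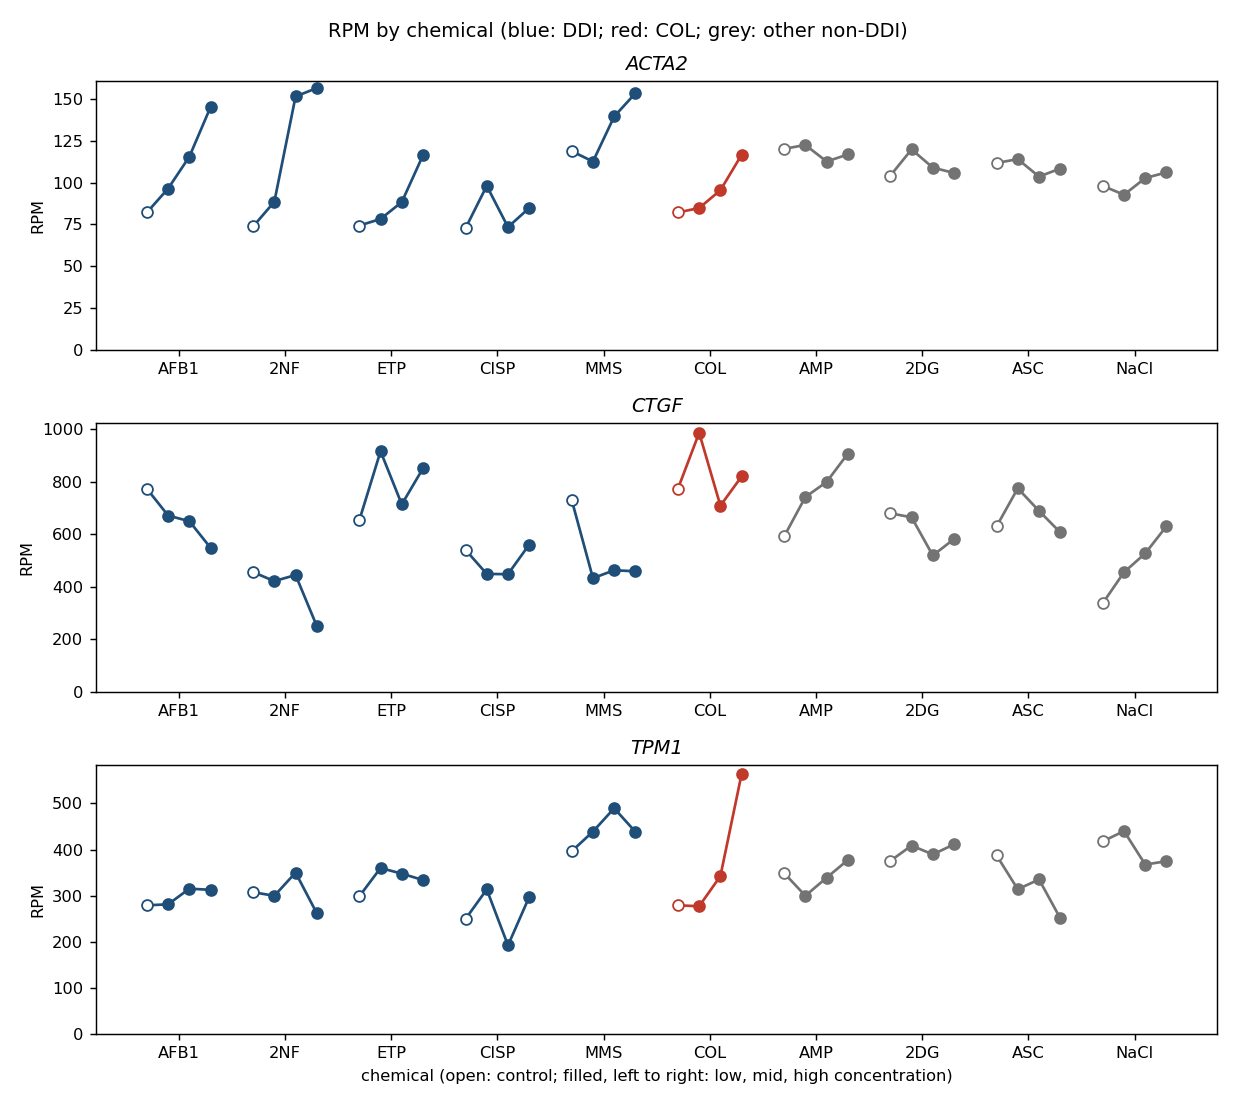
Level of ACTA2, CTGF and TPM1 in RPM (y axis, from 0) for each chemical (x axis), with the matched control open and the low, mid and high concentrations filled from left to right (1 library each; blue, DDI; red, COL; grey, other non-DDI). ACTA2 climbs in AFB1, 2NF and ETP, and TPM1 peaks at 564.4 RPM in COL.

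The remaining members did not pass over the DDI chemicals. TPM1 had a fitted change of 0.06 (SE 0.11), CYR61 of -0.09 (SE 0.14), SRF of 0.08 (SE 0.09) and AMOTL2 of -0.10 (SE 0.08). VCL (0.62, SE 0.27, adjusted p 0.12) and TAGLN (0.93, SE 0.61, adjusted p 0.333) had larger and less certain changes at their low counts. VCL reached its highest level of the series, 6.04 RPM (63 counts), in 2NF at 250 µM, against 2.30 RPM in its control.

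ANKRD1 swung in both directions. It was at 266.8 RPM in the CISP control, 43.9 RPM at 2 µM, its lowest level in the series, and 245.4 and 347.9 RPM at 5 and 10 µM. With 2NF it went from 283.4 RPM, the highest control, to 151, 65.8 and 82.9 RPM (fitted change -1.97, SE 0.71, adjusted p 0.0885). With AMP it went from 98.2 RPM to 235.6, 211.1 and 278.5 RPM. Over the DDI chemicals its fitted change was 0.17 (SE 0.33, adjusted p 0.785), with series that moved in opposite directions.

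Some cytoskeletal SRF targets also rose over the DDI chemicals. Of 16 tested, 4 rose and 0 fell, against 8.05% of all genes tested higher and 11.0% lower. The median fitted change of the 16 was 0.24. They were FHL2 (0.90, SE 0.13, adjusted p 7.25e-06), FLNA (0.63, SE 0.12, adjusted p 0.000334), TPM4 (0.49, adjusted p 0.0116) and ACTN1 (0.49, adjusted p 0.0224). The TPM4 call was lost without 2NF (0.31, adjusted p 0.2), without ETP (0.0609) and with the vehicle as block (0.0553), and the ACTN1 call without AFB1 (0.0584) or MMS (0.0599). Of 19 other YAP and TEAD targets 3 rose and 3 fell, against the same shares of all genes. The number that fell was near that background. AMOTL1 rose by 1.53 on the log2 scale (SE 0.19, adjusted p 1.16e-06), AXL by 0.71 (adjusted p 0.000109) and IGFBP3 by 0.46 (adjusted p 0.0205). RBMS3 (-0.93, adjusted p 2.85e-06), DOCK5 (-0.33, adjusted p 0.00807) and ARHGEF17 (-0.70, adjusted p 0.0375) fell. The IGFBP3 call was lost without MMS, where its value was 0.19 (adjusted p 0.564), without ETP (0.0529) and with the vehicle as block (0.0861). DOCK5 was lost without 2NF (-0.14, adjusted p 0.409) and without AFB1 (0.0601). ARHGEF17 was lost without any 1 of AFB1, ETP, MMS and 2NF (adjusted p up to 0.157) and with library totals (0.0576).

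Over the DDI chemicals ARHGEF2 rose by 0.47 on the log2 scale (SE 0.14, adjusted p 0.0141). Without 2NF the ARHGEF2 call was lost (0.40, adjusted p 0.0739). Of the 5 ternary complex targets tested, 1 fell over the DDI chemicals, against 11.0% of all genes. It was the immediate early gene FOS (-0.62, SE 0.20, adjusted p 0.031). The FOS call was lost without MMS (-0.25, adjusted p 0.595), without AFB1 (0.128) and with library totals (0.0548). In MMS alone, where 15.5% of all genes passed in either direction, 4 of the 5 ternary complex targets fell. Their median was -1.87 in MMS, whereas it was 0.37 in CISP. The Hippo scaffold SAV1 rose by 0.32 on the log2 scale (SE 0.09, adjusted p 0.0136), and its call was lost without AFB1 (0.0534). YAP1 (0.04, adjusted p 0.852), WWTR1 (0.11, adjusted p 0.513) and MKL1 (-0.16, adjusted p 0.654) did not pass. Of the 10 hepatocyte markers 8 fell, against 11.0% of all genes, with a summed level from 4473 to 46770 RPM in the 15 DDI libraries. Of 7 tubulin genes 5 rose, against 8.05% of all genes, TUBB among them (0.70, SE 0.15, adjusted p 0.00132). Smooth muscle markers, the class that ACTA2 also marks, summed to between 10.3 and 65.3 RPM in the DDI libraries, with 1 of 3 tested genes higher. The part of these shifts in the ACTA2 and CTGF results was not tested.

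The difference between COL and the DDI chemicals was tested directly. TPM1 was the 1 of 9 members that passed, against 2.99% of all genes, with a fitted change higher in COL by 0.83 (SE 0.21; adjusted p 0.0282). That call was lost without the 0.3 µM library (0.34, adjusted p 1.00), without AFB1 (adjusted p 0.114), without the shared control (adjusted p 0.0551) and with 1 equal term. For ACTA2 the difference was -0.15 (SE 0.18; adjusted p 0.848), and for CTGF 0.27 (SE 0.24; adjusted p 0.748), so neither was shown to differ between COL and the DDI chemicals. VCL (1.65, SE 0.54, adjusted p 0.11) and TAGLN (2.10, SE 1.06, adjusted p 0.397) did not pass. Of the other cytoskeletal SRF targets 3 of 16 passed, FLNA (adjusted p 0.000842), MYH9 (0.00585) and TPM4 (0.0108), each higher in COL. Of the 19 other YAP and TEAD targets, 2 passed higher in COL and 1 lower. The lower one was IGFBP3, which fell in COL and differed between them by -1.77 (SE 0.32; adjusted p 0.0012).

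**Figure D5:**
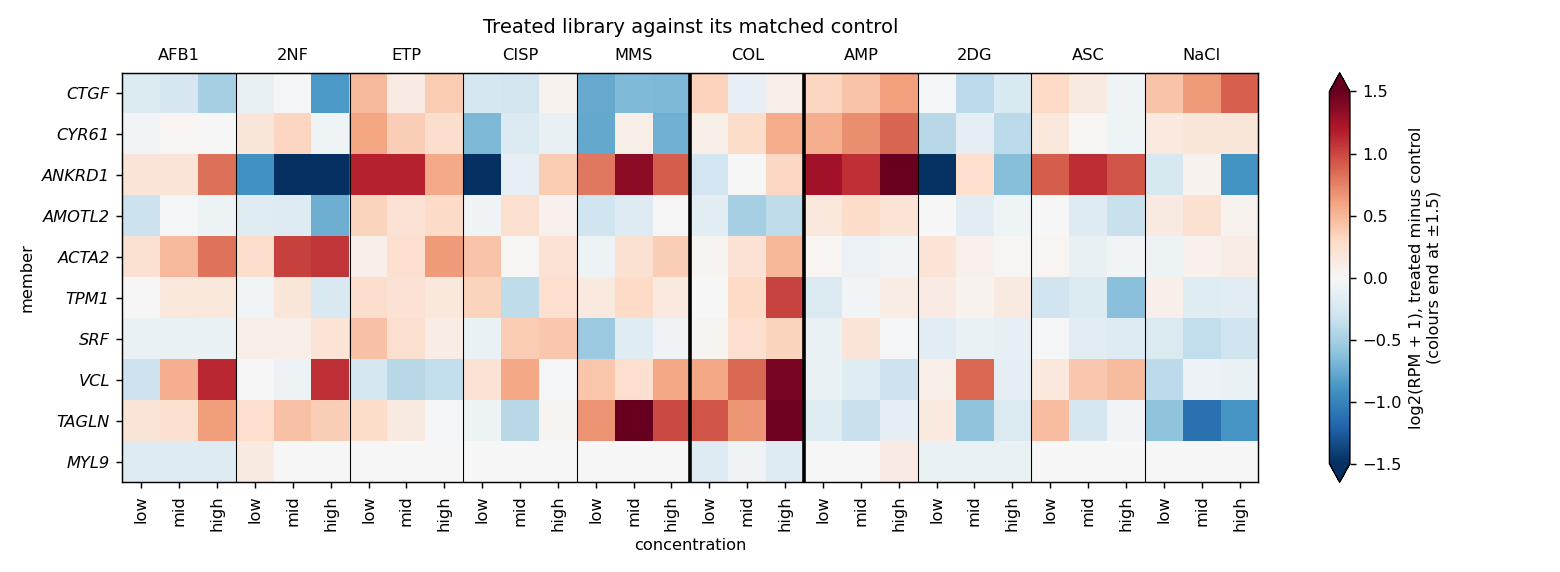
Log2(RPM + 1) of each treated library minus its matched control for the 10 members (y axis) over 10 chemicals at 3 concentrations (x axis), red where higher and blue where lower, with colours ending at ±1.5. The ACTA2 row is red across most DDI columns, and ANKRD1 has the widest range, from -2.57 to 1.49.

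Across the 30 treated libraries, the log2 ratios of CTGF and CYR61 had a Pearson r of 0.65 and those of CTGF and AMOTL2 of 0.60, whereas CTGF and ACTA2 had -0.40 and ANKRD1 and ACTA2 -0.47. These values describe 30 points that share controls, chemicals and depth. Among the controls, ACTA2 (72.7 to 82.1 RPM in DMSO, 98.0 to 120.2 RPM in medium) and TPM1 (249.2 to 307.4 RPM and 348.8 to 417.6 RPM) did not overlap between vehicles. They were 2 of 7 members with at least 10 counts in every library, beside 13.6% of targets at that depth. TAGLN, at low counts, did not overlap either (0 to 0.378 RPM in DMSO, 0.548 to 1.52 RPM in medium). In the COL and DMSO-borne DDI series these genes therefore started from a lower level than in the media series.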

How the data were processed

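HepaRG cultures of 39 conditions were profiled by Ion AmpliSeq. The authors deposited read counts per amplicon target, aligned to the panel's hg19 transcripts and not normalized, and RPM, the counts scaled to the library total. Members and gene lists were chosen with earlier results of these data known. Counts were tested with edgeR 4.0.16 in R 4.3.3 (TMM, filterByExpr, quasi-likelihood) in 1 fit of 39 libraries, with the matched control set as block and 1 slope per chemical over concentration steps. Benjamini-Hochberg adjusted p values used a threshold of 0.05. With 1 library per condition, the error is the departure from a straight line over steps, so p values do not measure spread between cultures. A second fit took chemicals as replicates at the high concentration. Ratios are log2(RPM + 1) differences without a test. Alternatives included DESeq2 1.42.0, other scalings, filters and blocks, and left-out libraries or chemicals. The trend test was tested on simulated data. Spike-in targets (19) were left out. Reads carry no molecular identifiers, so amplified copies of 1 molecule count as separate reads, and a counting interval is a lower limit of the error. Besides all members, genes of other lists were named where called in COL or DDI, the 5 with the smallest adjusted p of a list in each, with ARHGEF2, YAP1, WWTR1, MKL1 and TUBB in any case. Further genes were named after their values were seen. Figures used Python 3.11.15 and matplotlib 3.10.9. Promoters are RefSeq's. The results of 1 of the gene lists are not reported here.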

Additional observations from a re-analysis of the deposited data

Results flagged for a closer look

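TPM1 was set apart because its trend in COL differed from that over the DDI chemicals in a direct test, by 0.83 on the log2 scale. CTGF and ACTA2 were set apart because their trends over the DDI chemicals differed from those of the 4 non-DDI chemicals without COL, by -0.67 for CTGF and 0.57 for ACTA2. No vehicle control stood apart from the others of its vehicle in any of 18 groups of 4 controls examined, in which chance marks about 1 in 20.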

How the results depend on the processing

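With 1 equal term per chemical the genes called fell to 7 in COL, 407 over the DDI chemicals, 0 for DDI minus non-DDI and 2 for COL minus DDI, with 0 members in each, 0 of the single-chemical member calls, and 0 genes of the cytoskeletal SRF list in COL and over DDI, against 1 of the YAP list in COL and 2 over DDI. With the vehicle as block, COL gave 2806 genes and 5 members, DDI 1 member, DDI minus non-DDI 1 member, and COL minus DDI 1481 genes and 4 members. With at least 10 counts in every library 1 member passed in COL, since VCL and TAGLN were not tested. Leaving out each COL library or the shared control in turn gave from 215 to 1658 genes in COL (0 to 3 members, 2 to 9 SRF and 1 to 7 YAP targets). Leaving out each DDI chemical gave from 1729 to 3072 genes over DDI (1 to 3 members) and from 696 to 1587 for DDI minus non-DDI (1 to 2 members). Leaving out either gave from 34 to 634 genes for COL minus DDI (0 to 2 members). The class comparison at 1 concentration gave 2 genes at the mid and 0 at the low one, 273 with DESeq2, 27 with library totals, 57 without a filter and from 1 to 17 without 1 chemical. Library totals moved the share of higher calls from 41.5% to 51.5% in COL, from 42.3% to 55.0% over DDI and from 39.8% to 57.3% for DDI minus non-DDI. No value of a called gene reversed. Where calls moved, the cause was not tested. In the ratio of COL at 0.3 µM to control, TAGLN moved from 1.46 to 3.58 and VCL from 1.42 to 1.99 with a pseudocount of 0.1. DESeq2, its size factors and no filter left the calls of members in COL and DDI as they were. The trend fit is blocked by matched control throughout, and the vehicle as block is its alternative. The labels give no replicate numbers shared between groups for a further pairing.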
